A study of Mus musculus with 6 samples.

Results

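PDLIM proteins, alpha-actinins and nonmuscle myosin II were followed in cultured mouse megakaryocytes, the cells that shed platelets, through 10 genes: Pdlim1, Pdlim2, Pdlim4, Pdlim5, Pdlim7, Actn1, Actn4, Myl9, Myh9 and Myh10. Every probe set that the array annotation assigned to one of these genes alone was taken, which gave 27 of the 45101 probe sets on the array. A probe set is the group of array probes read together as 1 signal, and genes had between 1 and 7 of them. The 10 genes were chosen in part by their measured values in the comparison below: Pdlim1 was among the genes called lower, and the values of Myl9 and Actn1 were known. Their differences between the groups are therefore given as a description of these arrays, and counts over the 10 genes support nothing further.

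There were 3 FOG1 ki/ki arrays, whose genotype the labels write FOG1-/- ki/ki, and 3 control arrays. Control replicates 1 and 2 were FOG1+/- and control replicate 3 was FOG1+/+. With this 1 FOG1+/+ array, that genotype cannot be told apart from replicate 3. Zfpm1 encodes FOG1, which binds GATA transcription factors and acts with them, and the labels do not name the change carried by the knocked-in allele. Cells of all 6 cultures came from fetal liver of mice of a mixed C57BL/6xSv129 background and were grown with thrombopoietin, and the series' design text says that mature megakaryocytes were isolated on a BSA gradient. The embryonic age and the number of animals per culture are not given in the sources used here. The samples are labelled biological replicates and their labels leave unsaid whether equal numbers mark a common litter or day. The p-values set each group difference against the spread of these 6 arrays within their groups, pooled in part over genes. They reach no further than these arrays. The question is how the transcripts of this contractile and crosslinking machinery differ between FOG1 ki/ki and control megakaryocytes.

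As background, alpha-actinins are dimers that tie actin filaments into bundles and anchor them at adhesion sites. PDLIM proteins carry a PDZ domain, through which several of them bind alpha-actinin, and 1 or more LIM domains, which bring kinases and other partners to the filaments. Nonmuscle myosin II consists of heavy chains, encoded here by Myh9 and Myh10, and light chains such as that of Myl9, whose phosphorylation switches the motor on. In megakaryocytes this system holds back and shapes proplatelets, the extensions from which platelets form. Inherited variants of human MYH9 and ACTN1 cause low counts of enlarged platelets.

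The 250 bases before the annotated start are shown for Pdlim1, Actn1 and Myl9, which with Pdlim4 had the lowest differences from control. They are RefSeq sequences of build GRCm38.p6, read 5′ to 3′ on the strand of the gene, and capitals mark any match to the motifs described next. Pdlim1 lies on the minus strand at chr19:40271617-40271866, Actn1 on the minus strand at chr12:80260364-80260613, and Myl9 on the plus strand at chr2:156775214-156775463.
Pdlim1: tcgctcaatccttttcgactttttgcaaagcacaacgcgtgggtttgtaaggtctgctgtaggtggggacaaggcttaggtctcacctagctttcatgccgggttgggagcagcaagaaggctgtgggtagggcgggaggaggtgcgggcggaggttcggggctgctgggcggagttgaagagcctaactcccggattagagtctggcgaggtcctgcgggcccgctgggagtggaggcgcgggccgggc
Actn1: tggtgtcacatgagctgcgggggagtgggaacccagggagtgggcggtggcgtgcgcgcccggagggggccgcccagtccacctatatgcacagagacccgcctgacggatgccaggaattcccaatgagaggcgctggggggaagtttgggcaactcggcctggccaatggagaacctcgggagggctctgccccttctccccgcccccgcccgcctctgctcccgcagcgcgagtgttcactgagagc
Myl9: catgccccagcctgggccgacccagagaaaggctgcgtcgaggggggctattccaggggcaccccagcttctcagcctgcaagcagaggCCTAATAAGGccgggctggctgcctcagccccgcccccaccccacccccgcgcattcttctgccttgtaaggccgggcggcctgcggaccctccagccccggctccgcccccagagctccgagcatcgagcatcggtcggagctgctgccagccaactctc
The motifs, searched on both strands, were the GATA word (GATA with A or T before it and A or G after it), the RUNX word (TGNGGT with T or C at N), the ETS word (GGAAG with C or A before it) and the CArG box, the element bound by serum response factor. Matches of different motifs did not overlap in the windows of these genes. Myl9 held a CArG box that began 161 bases before the start, and 1.47% of the 32851 windows of that length in the table held one. The Pdlim1, Actn1 and Pdlim4 windows held none of these motifs. GATA words stood in 26.5% of all windows, RUNX words in 18.6% and ETS words in 39.2%. Of the 10 windows found for 9 of the genes (Pdlim2 had none in the table, and Pdlim5 had 2), GATA words stood in 1, a Pdlim5 window, RUNX words in 0 and ETS words in 3, of Pdlim5, Pdlim7 and Myh9. A match is only a match of letters, and its absence concerns only these windows.

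Signals were MAS5 intensities, which were scaled by the authors so that the arrays share 1 average. They were compared as log2(signal + 16), so a difference of -1 is close to a halving of signal in bright genes and understates the change in dim ones. Each gene was represented by its brightest probe set, after the dimmer 50% of all probe sets were left out, and 11260 genes were tested with limma. Adjusted p-values run over all of them and are given as each gene's place in that fit. All 10 genes passed this filter with at least 1 probe set. Of the 27 probe sets 23 passed, and the 4 that did not were 2 of Pdlim1 and 1 each of Pdlim7 and Myh10. Their signals ran from 0.174 to 6.66, near background. The dimmest that passed, a Myh9 probe set, had a mean log2 value of 5.04, and the brightest left out, of Pdlim1, one of 4.33, on either side of a limit of 4.71.

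Zfpm1 itself read 480, 868 and 1274 in FOG1 ki/ki and 430, 862 and 1137 in control (log2 difference 0.11, limma adjusted p = 0.999). The knocked-in allele may itself be read by this probe set, so the level checks no genotype. All 8 megakaryocyte markers measured (Itga2b, Itgb3, Gp9, Gp5, Gp1bb, Pf4, Ppbp and Vwf) were bright on every array, Gp5 in FOG1 ki/ki replicate 1 being the lowest at 1022. The 2% trimmed mean was 150 on every array, but the medians differed. They were 12.3, 11.1 and 5.93 in FOG1 ki/ki replicates 1 to 3, and 10.3, 12.2 and 7.75 in control replicates 1 to 3. Low readings of dim genes on the replicate 3 arrays stand beside these lower medians.

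Pdlim1, also called CLP36, which binds alpha-actinin 1 in platelets, was the only one of the 10 genes to pass the test. It read 182.5, 155 and 122 in FOG1 ki/ki replicates 1, 2 and 3, and 893, 929 and 1615 in control replicates 1, 2 and 3. Every FOG1 ki/ki array was far below every control array. Control replicate 3 was the highest, and its FOG1+/+ genotype cannot be told apart from its replicate number. The means were 153 ± 30.5 in FOG1 ki/ki and 1146 ± 407 in control (SD, n = 3 each). Pdlim1 fell by 2.74 on the log2 scale (SE 0.29, limma adjusted p = 0.0239), and it fell in each equally numbered pair, with differences of -2.20, -2.46 and -3.57. By size this was the seventh lowest difference among the 11260 genes, and by unadjusted p it ranked 6. In a bulk culture, fewer cells of a type and less RNA per cell cannot be told apart. The call was lost with 1 array fewer: leaving out any 1 array gave differences from -2.89 to -2.47 and adjusted p from 0.0676 to 0.142. With no filter on dim probe sets the adjusted p was 0.0881. All these values are of 1 probe set. The other Pdlim1 probe sets read near background on every array, control included, and did not pass the filter.

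Among all genes tested 0.0533% were called lower and 0.0977% higher, 0.151% in all, and nothing is read from the 1 gene of 10, which was chosen with this value known. At an unadjusted p under 0.05 there were 3 of the 10 genes, Pdlim1, Pdlim4 and Myl9, all lower, against 6.69% of all genes in either direction and 3.69% lower. With the replicate block there were 6, with Actn1 and Pdlim7 lower and Pdlim2 higher beside those 3, against 18.4% of all genes. With the replicate number as a block in the fit, 0.835% of genes were called, 0.417% lower and 0.417% higher, and of the 10 genes Pdlim1 alone was again called (adjusted p = 0.0202). The groups did not overlap for Pdlim1 and Myl9, both lower in FOG1 ki/ki, and for Pdlim2, higher, while 4.93% of all genes lay lower and 6.32% higher without overlap. Pdlim1, Pdlim4, Pdlim7, Actn1 and Myl9 were lower in all 3 pairs and Pdlim2 and Pdlim5 higher in all 3, against 19.3% and 24.8% of all genes. Of the 10 genes 6 were below control on the mean, as were 44.9% of all genes, and Pdlim1 and Myl9 were at -1 or lower, as were 3.21%. The median difference was -0.24 over the 10 genes and 0.03 over all genes tested.

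**Figure D1:**
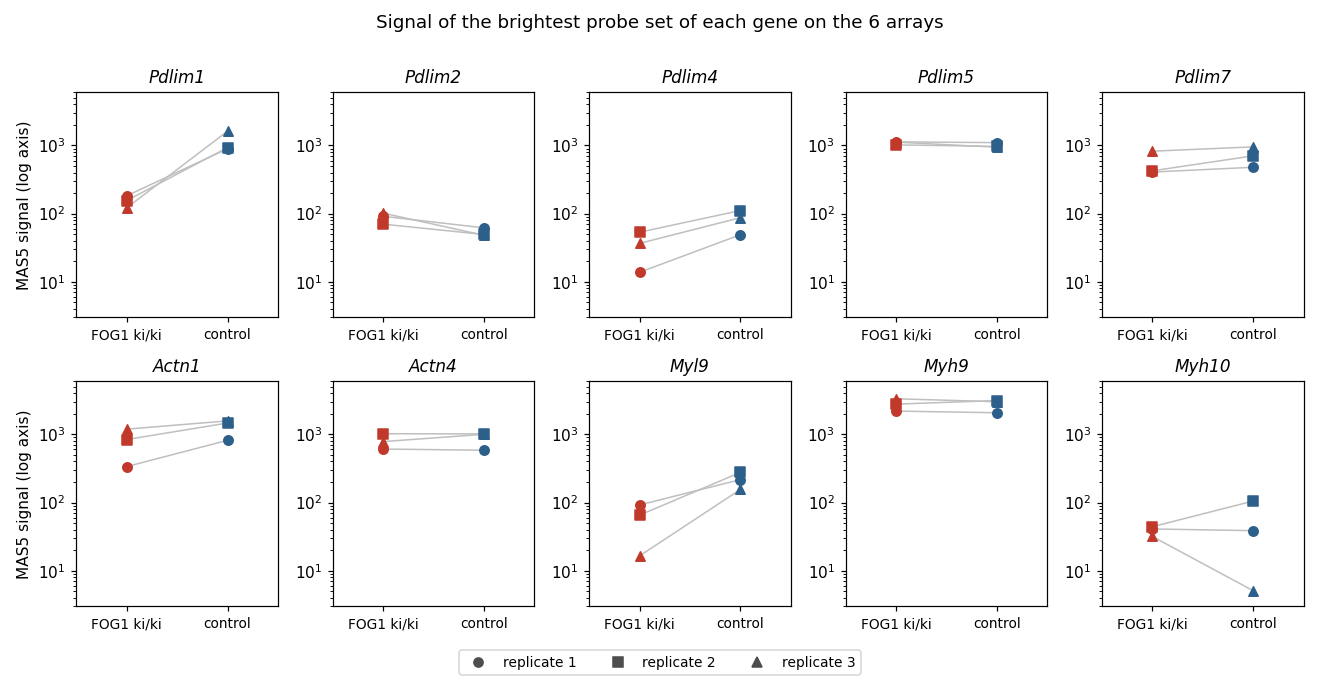
MAS5 signal (log axis) of the brightest probe set of each of the 10 genes, with 3 FOG1 ki/ki arrays on the left and 3 control arrays on the right of each panel and grey lines joining equal replicate numbers. Pdlim1 and Myl9 lie lower and Pdlim2 higher in FOG1 ki/ki without overlap, while Pdlim5, Actn4 and Myh9 sit at similar heights in both groups.

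The other PDLIM genes did not pass the test and differed among themselves. Pdlim4, also called RIL, which binds alpha-actinin and actin stress fibres, read 13.8, 53.3 and 36.6 in FOG1 ki/ki and 48.9, 111 and 87.0 in control. The groups overlapped at their edges, since control replicate 1 was below FOG1 ki/ki replicate 2, but each FOG1 ki/ki array was below its control partner by a like amount, -1.12, -0.87 and -0.97. It differed by -0.99 on the log2 scale (SE 0.41, limma adjusted p = 0.711, and 0.0793 with the replicate block). The signals are dim, and the difference was -1.34 with a pseudocount of 1, -0.57 with one of 64 and -0.65 without FOG1 ki/ki replicate 1.

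Pdlim7, also called Enigma, whose LIM domains bind receptor kinases, read 407, 424 and 822 in FOG1 ki/ki and 478, 702 and 951 in control. The replicate 3 array was the highest of its group on both sides, and the groups overlapped. On the log2 scale it differed by -0.38 (SE 0.34, adjusted p = 0.991). Leaving out any array but control replicate 2 moved this by over 1.5 times: it was -0.21, -0.23 and -0.70 without FOG1 ki/ki replicates 1, 2 and 3, and -0.63 and -0.15 without control replicates 1 and 3. A second, dimmer probe set of Pdlim7 read 95.4, 122 and 166 in FOG1 ki/ki and 124, 196 and 285 in control, a difference of -0.56 that did not pass the test.

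Pdlim2, known in mouse immune cells for marking transcription factors for degradation in the nucleus, stood the other way. It read 91.3, 70.0 and 101 in FOG1 ki/ki and 61.8, 49.4 and 48.1 in control, so that the lowest FOG1 ki/ki array was above the highest control array. This was a log2 difference of 0.58 (SE 0.27, adjusted p = 0.807), and the pair differences were 0.46, 0.40 and 0.87. These signals are dim, and the difference was 0.70 with a pseudocount of 1 and 0.37 with one of 64.

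Pdlim5, also called ENH, a scaffold for protein kinase C, had the smallest standard error of the 10 genes at its brightest probe set. That probe set read 1126, 1017 and 1117 in FOG1 ki/ki and 1098, 967 and 941 in control, a log2 difference of 0.12 (SE 0.14, adjusted p = 0.999). The other 6 Pdlim5 probe sets differed between the groups by -0.11 to 0.17. They differed far more by replicate number. The second dimmest, by mean log2 value, read 143 in FOG1 ki/ki replicate 1 and 139 in control replicate 1, against 38.3 and 22.4 in the other FOG1 ki/ki arrays and 37.9 and 33.8 in the other controls. On this and 3 more Pdlim5 probe sets both replicate 1 arrays were above the other 4, while the brightest varied little, so the probe sets of this gene disagree on the replicates and not on the genotypes. Which transcripts each probe set reads was not analysed here.

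Actn1, the alpha-actinin of platelets, had lower values in FOG1 ki/ki at all 3 of its probe sets, and none passed the test. The brightest read 337, 839.9 and 1193 in FOG1 ki/ki and 818, 1467 and 1576 in control, with replicate 1 the lowest of each group and with overlap between the groups. Its log2 difference was -0.81 (SE 0.46, limma adjusted p = 0.910, and 0.0880 with the replicate block), and the pair differences were -1.24, -0.79 and -0.40. It was -0.30 without FOG1 ki/ki replicate 1, the array with the lowest signal.

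The dimmer Actn1 probe sets separated the groups. The first read 60.2, 137 and 127 in FOG1 ki/ki and 148, 310.2 and 359 in control, a difference of -1.20 (SE 0.42, adjusted p = 0.635 over probe sets). The second read 52.2, 86.2 and 88.6 in FOG1 ki/ki and 146, 199.8 and 257 in control, a difference of -1.23 (SE 0.32, adjusted p = 0.365). On both, each FOG1 ki/ki array was below each control array, and the 3 pair differences lay between -1.39 and -1.08, without the narrowing in pair 3 that the brightest probe set shows. Over the 23 probe sets that passed the filter, 4 were lower in FOG1 ki/ki without overlap and 1 higher, against 4.9% and 5.35% of the 22518 probe sets tested. The 4 were those of Pdlim1 and Myl9 and this pair of Actn1. In the fit over probe sets only that of Pdlim1 was called, with or without the block, where 0.0666% of all probe sets were called and 0.0311% lower, or 0.28% lower and 0.244% higher with the block.

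Actn4, the other nonmuscle alpha-actinin, had 1 probe set, which read 609, 1022 and 783 in FOG1 ki/ki and 585, 1015 and 1003 in control. Pairs 1 and 2 were nearly equal and the replicate 1 arrays were the lowest of both groups. The log2 difference was -0.09 (SE 0.28, adjusted p = 0.999).

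**Figure D2:**
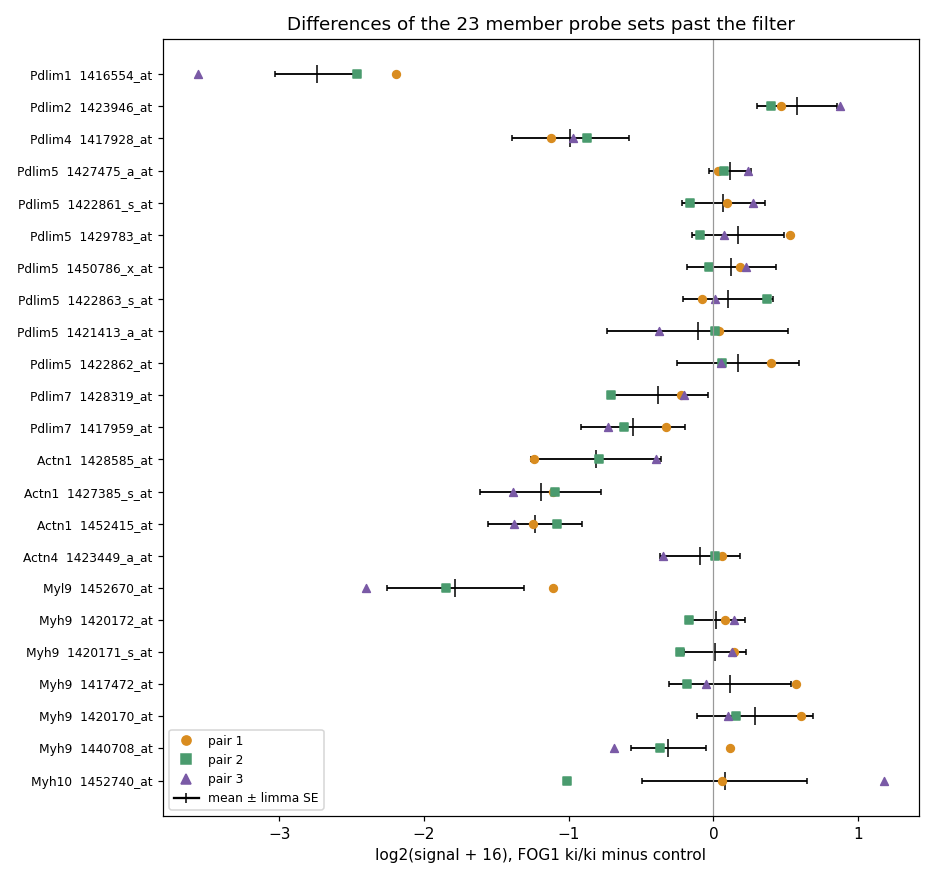
Difference in log2(signal + 16), FOG1 ki/ki minus control, for each of the 23 probe sets that passed the filter, with the 3 pairs of equal replicate number as coloured points and the mean with its limma standard error in black. The probe sets of Pdlim1, Pdlim4, Pdlim7, Actn1 and Myl9 lie left of 0 in all 3 pairs, and that of Pdlim2 right of 0. Most of those of Pdlim5 and Myh9 scatter around 0, and some lie right of 0 in all 3 pairs.

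Myl9, the regulatory light chain whose phosphorylation turns nonmuscle myosin II on, had the second lowest difference of the 10 genes and did not pass the test. It read 92.2, 65.4 and 16.5 in FOG1 ki/ki and 217, 277 and 155 in control. All FOG1 ki/ki arrays were below all control arrays, and the replicate 3 array was the lowest of each group. The means were 58.0 ± 38.4 in FOG1 ki/ki and 216 ± 60.6 in control (SD, n = 3 each). The log2 difference was -1.78 (SE 0.48, limma adjusted p = 0.348, and 0.0584 with the replicate block), with pair differences of -1.11, -1.85 and -2.40. By size it was the 56th lowest of 11260. The FOG1 ki/ki signals are dim. The difference was -2.15 with a pseudocount of 1, -1.23 with one of 64 and -1.27 without FOG1 ki/ki replicate 3.

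On the mean log2 value the heavy chains differed less between the groups than Myl9, and this contrast was not tested. Myh9, the main heavy chain of platelets and megakaryocytes, read 2196, 2776 and 3326 in FOG1 ki/ki and 2073, 3130 and 3010 in control at its brightest probe set. The log2 difference was 0.02 (SE 0.20, adjusted p = 0.999), and the pair differences of 0.08, -0.17 and 0.14 had no common sign. The 4 brighter Myh9 probe sets differed by 0.01 to 0.29 and the dimmest, with signals of 8.03 to 27.2, by -0.31. The replicate 1 arrays were below the other 4 on those 4 probe sets. The third brightest read 1193 in FOG1 ki/ki replicate 1 and 798 in control replicate 1, against 1779 and 2416 in the other FOG1 ki/ki arrays and 2017 and 2502 in the other controls.

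Myh10, the heavy chain that megakaryocytes are known to silence, under RUNX1, as they turn from division to polyploidy, was dim and varied among the controls. It read 41.0, 44.2 and 31.8 in FOG1 ki/ki and 38.7, 105 and 5.10 in control. The 2 extreme values are both controls, control replicate 2 (FOG1+/-) and control replicate 3 (FOG1+/+), and the FOG1 ki/ki arrays lay between them. Its log2 difference was 0.08 (SE 0.58, adjusted p = 0.999), and the sign depended on which control was kept: it was 0.69 without control replicate 2 and -0.57 without control replicate 3.

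In all, both replicate 1 arrays were above the other 4 arrays on 4 of the 23 probe sets, all of Pdlim5, and below them on 6, the 4 of Myh9 and 1 each of Actn1 and Actn4. Over the 22518 probe sets tested these shares were 17.9% and 11.9%. Probe sets of 1 gene share their target and are not independent.

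**Figure D3:**
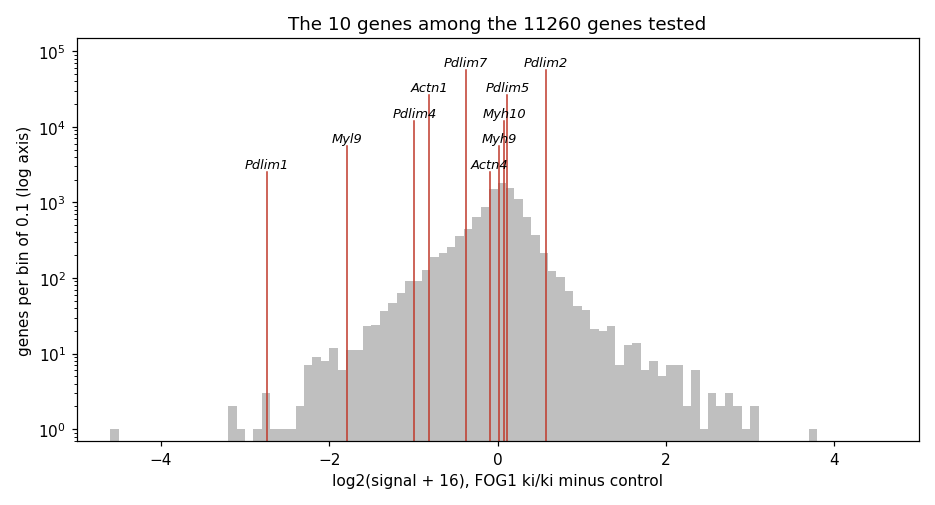
Histogram of the log2 difference, FOG1 ki/ki minus control, of the 11260 genes tested (counts on a log axis), with the 10 genes as red lines. Pdlim1 at -2.74 and Myl9 at -1.78 lie in the lower tail, Pdlim4 and Actn1 at -0.99 and -0.81 on its shoulder, and the myosin heavy chains within 0.1 of 0.

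Cultures of fetal liver cells can hold fibroblasts, smooth muscle cells and macrophages, some of which also express alpha-actinins, Myl9 and Myh10. The tested markers of each were below control on the mean log2 value, and none passed the test. Of the fibroblast markers 9 of 10 had a probe set, all 9 were below control on the mean, and 0 passed the test with or without the block. Their summed signal was 958, 2709 and 141 in FOG1 ki/ki replicates 1 to 3, and 1428, 6444 and 212 in control replicates 1 to 3. No fibroblast marker was at 0 on any array, and Lum at 0.250 in FOG1 ki/ki replicate 3 was the lowest. Of the 6 smooth muscle markers Cnn1, Des and Lmod1 never exceeded 4.43, and the summed signal was 220.3, 661 and 68.0 in FOG1 ki/ki against 493, 2004 and 301 in control. The markers in this sum behaved differently. Smtn read 25.2, 30.0 and 43.7 in FOG1 ki/ki and 51.9, 127 and 271 in control, and made up most of both replicate 3 sums. Acta2 and Tagln were highest in control replicate 2 (1414 and 454) and low in control replicate 3 (17.8 and 7.01). All 10 macrophage markers were below control on the mean, with sums of 2020.0, 8196 and 4725 in FOG1 ki/ki and 7983, 11090 and 5783 in control. These sums overlapped, FOG1 ki/ki replicate 2 being above control replicates 1 and 3. With or without the block, 0 smooth muscle and 0 macrophage markers passed the test.

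The fibroblast sums were lowest in both arrays of pair 3. Relative to control, they differed most in pair 2 (2709 in FOG1 ki/ki against 6444). The smooth muscle sums differed most in pair 3 (68.0 against 301), mostly through Smtn (43.7 against 271). Acta2 (16.9 against 17.8) and Tagln (5.83 against 7.01) were close there and differed most in pair 2. The macrophage sums differed most in pair 1 (2020 against 7983) and least in pair 3 (4725 against 5783). Of the 4 genes with the lowest differences, Pdlim1 (-3.57) and Myl9 (-2.40) had their largest pair difference in pair 3. Actn1 had its smallest there at its brightest probe set (-0.40), but its dimmer probe sets had their largest there (-1.39 and -1.38). Pdlim4 (-0.97) lay between its other pairs. Without control replicate 2, the array with the highest fibroblast and smooth muscle sums, the differences were -2.86 for Pdlim1, -1.60 for Myl9, -0.69 for Actn1 and -0.78 for Pdlim4. Megakaryocyte markers summed to 15580.0, 17650.0 and 21720.0 in FOG1 ki/ki and 16910.0, 21910.0 and 21790.0 in control, and 8 of 8 were below control by mean log2 value, 0 of them called. Mast cell markers ran the other way, with sums of 5569, 5989 and 6151 in FOG1 ki/ki and 2778, 2912 and 227 in control, and Ms4a2 passed the test with the block only (adjusted p = 0.00902). The 6 endothelial markers had no common direction: Pecam1 (-0.61), Emcn (-0.51) and Tie1 (-0.16) were below control, and Cdh5 (0.59), Kdr (0.74) and Tek (1.77) above. Tek, the brightest in FOG1 ki/ki, read 912, 1176 and 1194 in FOG1 ki/ki and 381, 370.5 and 204 in control, and passed the test with the block only (adjusted p = 0.0437, and 0.0912 without). The part of these other cells in the values of the 10 genes was not tested.

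**Figure D4:**
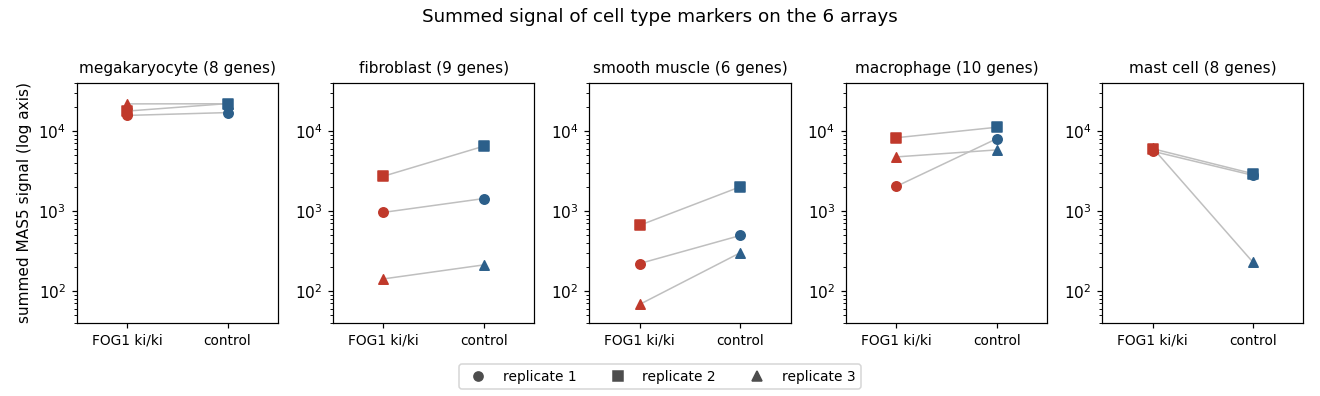
Summed MAS5 signal (log axis) of marker genes of 5 cell types on each array, with FOG1 ki/ki on the left, control on the right and grey lines joining equal replicate numbers. Fibroblast and smooth muscle sums are highest in control replicate 2 and, within each group, lowest in replicate 3, and mast cell sums are lowest in control replicate 3.

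Other genes of actin and myosin were described through 81 genes in 7 lists, of which 69 passed the filter. With limma 0 of the 69 were called, with or without the replicate block. At an unadjusted p under 0.05 there was 1, or 18 with the block, against 6.69% and 18.4% of all genes tested. Of the 69, 42 were below control and 27 above, with a median of -0.03.

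The LIM and alpha-actinin partners had 8 of 10 genes below control and a median of -0.11. Palld, palladin, which binds alpha-actinin, differed by -1.16, with signals of 131, 252 and 68.4 in FOG1 ki/ki and 268, 748 and 156 in control (adjusted p = 0.884, and 0.0584 with the block). Fhl2, a LIM-only cofactor, differed by -1.12, and Csrp1, a LIM protein of the actin cytoskeleton, by 0.40. Other actin crosslinkers had a median of -0.15, with the plastin Pls3 at -0.88, filamin Flna at -0.18 and fascin Fscn1 at -0.25. Among adhesion linkers Lims1 was at -0.33, Ilk at -0.27 and Pxn at 0.23.

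The other myosin II chains had log2 differences above 0 in 4 of 4, none past the test, with Myl12b at 0.19, the essential light chain gene Myl6 at 0.25 (though its mean signal was 156 in FOG1 ki/ki and 160.2 in control) and Myl12a at 0.04. Myl12a and Myl12b encode regulatory light chains close to that of Myl9, and both were bright, with Myl12b at 2164 in FOG1 ki/ki and 1915 in control and Myl12a at 1974 in FOG1 ki/ki and 1919 in control. Among the genes that control the light chain, 7 of 15 were below control and the median was 0.01. They held Cit, citron kinase of cytokinesis, at 0.74, and the small GTPases Rhob at -0.52 and Rhoc at -0.33. The light chain kinase Mylk (-0.04) and the kinase Rock1 (0.23), named after their values were seen, were both bright on all arrays.

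Of the genes of actin filament turnover 14 of 18 were below control, with a median of only -0.02, and the named members were the filament-capping Tmod3 at -0.71, the calponin Cnn2 at -0.36 and gelsolin, Gsn, at 0.22. The transcription factor list was split 5 and 5. Gata2 stood at 1.25 (adjusted p = 0.242), Runx1, which acts on Myl9 and Myh10 in megakaryocytes, at 0.31 (adjusted p = 0.978), and Mrtfb, a coactivator of serum response factor, at -0.56 (adjusted p = 0.919). Srf itself, named after its value was seen, was at 0.16.

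Genes with a profile like that of Pdlim1 over the 6 arrays were sought by the root mean square distance between log2 values, each gene first centred on its own mean. The nearest was Serpini1, neuroserpin, at 0.22, beside a root mean square of 1.41 for Pdlim1 about its own mean. Serpini1 read 92.6, 87.5 and 57.6 in FOG1 ki/ki and 347, 417 and 644 in control (log2 difference -2.32, adjusted p = 0.0575, and 0.0382 with the block). The next were A930003A15Rik at 0.33, the cannabinoid receptor gene Cnr1 at 0.41, the adhesion receptor gene Cd226 at 0.42 and Pcp4l1 at 0.45. Like Pdlim1, these genes had their highest signal in control replicate 3. They were picked for likeness to Pdlim1 on these arrays, so this shared feature follows largely from the choice.

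The profiles nearest to Myl9 were those of the platelet alpha granule gene F5, coagulation factor V, at 0.35, Armcx4 at 0.36, the phosphatase gene Ptprg at 0.37, the transcription factor gene Sox4 at 0.38 and the alpha granule gene Thbs1, thrombospondin, at 0.38, beside a root mean square of 1.06 for Myl9 itself. F5 read 763, 532 and 187 in FOG1 ki/ki and 1817, 1912 and 2196 in control (log2 difference -2.16, adjusted p = 0.223). Sox4 read 147, 243 and 39.9 in FOG1 ki/ki and 401, 531 and 224 in control, a difference of -1.51 (adjusted p = 0.638). On all 5, as on Myl9, FOG1 ki/ki replicate 3 was the lowest of the 6 arrays, which again follows largely from the choice. Distances over 6 arrays describe likeness on these arrays only.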

How the data were processed

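Signals of 6 arrays, 3 FOG1 ki/ki and 3 control, were analysed. The deposited intensity values were made by the authors with MAS5, which the submitters' processing notes name without a version. They are linear and scaled per array (2% trimmed mean 150), so total RNA per cell cannot be read from them, and values near background are noisy. Signals of the replicate 3 arrays carry more decimals than the others, which have 1. The genome build behind the values and the scanner files were not used here.

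The 64 control probe sets were left out, then the dimmer 50% of the rest. Intensities were analysed as log2(signal + 16) with limma 3.58.1 in R 4.3.3 (lmFit, eBayes with a trend), Benjamini-Hochberg adjustment and a threshold of 0.05, once over 11260 genes by their brightest single-gene probe set and once over 22518 probe sets. Python 3.11.15 with pandas 2.3.3, numpy 2.4.6 and matplotlib 3.10.9 did the rest, and the fit was tested on simulated data. The 10 genes, gene lists and tests were chosen with earlier results of these data known. The named genes were the 10, Zfpm1, up to 3 genes per list with the smallest unadjusted p together with any past either fit, and the 5 profiles nearest to Pdlim1 and to Myl9. Mrtfa and Mrtfb are the current symbols of Mkl1 and Mkl2.

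Deviations from the group means of equally numbered arrays correlated at 0.438, 0.648 and 0.597 over 22518 probe sets. For unequally numbered arrays the values ran from -0.51 to 0.0229. This was read as pairing by replicate number, a basis in the data and not in the labels. Deviations within a group cancel each other, so the correlations are not independent. They do not tell a common litter or day from common array processing. The unblocked fit stayed the main one.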

Additional observations from a re-analysis of the deposited data

How the results depend on the processing

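With 3 arrays per group, precision is limited by their number, and dim signals by background. Pdlim1 stayed below control in all 18 alternatives run. It was called under the pseudocounts of 1 and 64, quantile normalization, median centring, the brightest 25% of probe sets, averaged probe sets, no trend and the replicate block. It was not called with no filter on dim probe sets (adjusted p = 0.0881, 0 of the 10 genes called), without any 1 array (differences from -2.89 to -2.47, 0 of the 10 genes called each time), or without both arrays numbered 1, 2 or 3 (adjusted p = 0.366, 0.7004 and 0.161, 0 of the 10 called). The block changed no other call among the 10 genes, their 23 probe sets or the 69 listed genes.

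Over all genes the count called was 17, and 94 with the replicate block, 8 with a pseudocount of 1, 1 with no filter, 3 in the brightest 25% of probe sets, 1 to 2 without any 1 array and 0 without a pair. Fewer arrays leave fewer degrees of freedom. The median of all genes moved by less than 0.1 under either scaling.

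Signs turned only for genes and probe sets whose difference in the main fit was smaller than its standard error. With a pseudocount of 64 Myh10 stood at -0.047. Quantile normalization put Myh9 at -0.00065. Without both arrays numbered 1 Myh9 was -0.014, and without both numbered 3 the values were -0.045 for Myh9, -0.48 for Myh10 and 0.033 for Actn4. Leaving out 1 array gave -0.57 to 0.69 for Myh10, -0.17 to 0.17 for Myh9 and -0.35 to 0.087 for Actn4. By brightness it gave -0.20 to 0.18, -0.38 to 0.44 and -0.090 to 0.58 for the next 3 Myh9 probe sets. For the 6 dimmer Pdlim5 probe sets it gave -0.069 to 0.22, -0.063 to 0.35, -0.012 to 0.34, -0.025 to 0.31, -0.71 to 0.42 and -0.24 to 0.46.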
